A study of Homo sapiens with 2 samples.

Results

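The miR-99, miR-100 and miR-125 families were followed here through 7 mature miRNA names, taken by name from the 2038 names in the deposited tables. These are 5 guide arms, miR-99a-5p, miR-99b-5p, miR-100-5p, miR-125a-5p and miR-125b-5p, and the 2 passenger arms that tell the miR-125b genes apart, miR-125b-1-3p and miR-125b-2-3p. All 7 were found in both tables and all 7 passed the filter on low values. The cells were FaDu (spelled FadU in the labels), an established squamous carcinoma line of the hypopharynx. One culture was FaDu spheres, which the labels describe as sphere-derived cancer stem cells, grown without labelled serum in DMEM-F12, to which N2 Plus Supplement and the growth factors EGF and recombinant bFGF (both at 10 ng/ml) were added. The other was parental FaDu cells in RPMI-1640 with 10% FBS. Both media held penicillin and streptomycin, and no genetic change was labelled. Each culture gave 1 small RNA library, so no difference below has a replicate check, no test between conditions was possible, and medium, serum and growth form cannot be told apart.

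The miR-99 and miR-100 genes belong to the ancient miR-10 superfamily and repress MTOR, the kinase at the centre of growth control. miR-125 is the vertebrate counterpart of lin-4, the developmental timing miRNA of Caenorhabditis elegans, and ERBB2 and ERBB3, receptors of the EGF receptor family, are among its known targets. In the human genome a miR-99 or miR-100 gene, a let-7 gene and a miR-125 gene lie together at 3 places. In each hairpin one arm is mostly kept as the guide and the opposite, passenger arm is mostly degraded, so a passenger arm can report on a gene whose guide is made by a second gene as well.

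The guide sequences show why the families are treated as seed groups. They are given 5′ to 3′ from RefSeq (GRCh38.p14), where all 7 names matched, with bases 2 to 8, the seed that pairs with targets, in capitals.
miR-99a-5p: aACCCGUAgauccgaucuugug
miR-99b-5p: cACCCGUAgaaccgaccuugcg
miR-100-5p: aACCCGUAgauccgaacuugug
miR-125a-5p: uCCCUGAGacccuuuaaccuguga
miR-125b-5p: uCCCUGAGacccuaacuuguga
The first 3 share 1 seed and the last 2 another. In positions counted from the 5′ end, with the base of miR-100-5p first, miR-99a-5p differs from miR-100-5p by A16U alone. miR-99b-5p differs from it by A1C, U11A, A16C and U21C. miR-125a-5p, at 24 nt, shares its first 13 bases with miR-125b-5p, at 22 nt. No other name in the RefSeq table had the miR-99 and miR-100 seed. The miR-125 seed occurred in 1 other name, miR-4319, which was listed at 0 in both libraries.

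miR-125b-5p has the same sequence from MIR125B1 and MIR125B2, so its reads cannot be divided between the genes. The passenger arms differ, and their sequences are shown because the largest differences among the members lay there. Capitals again mark bases 2 to 8.
miR-125b-1-3p: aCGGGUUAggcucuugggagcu
miR-125b-2-3p: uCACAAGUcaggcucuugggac
They share a run of 12 bases but neither the first base nor the seed. The MIR125B1 hairpin (GRCh38.p14, chr11:122099757-122099844, minus strand) shows both arms, in capitals, at bases 15 to 36 (miR-125b-5p) and 55 to 76 (miR-125b-1-3p).
MIR125B1: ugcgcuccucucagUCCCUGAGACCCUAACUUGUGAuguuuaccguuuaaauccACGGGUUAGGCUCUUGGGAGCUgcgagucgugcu

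Both miR-125b genes and their neighbours lie in introns of long non-coding or coding hosts in GENCODE. In the chromosome 11 cluster, MIR125B1 is 52.5 kb from MIR100 (miR-100-5p at chr11:122152275-122152296, minus strand) in MIR100HG, with MIRLET7A2 between them. In the chromosome 21 cluster, MIR99A (miR-99a-5p at chr21:16539101-16539122, plus strand) is followed by MIRLET7C and, 51.2 kb away, by MIR125B2 (miR-125b-2-3p at chr21:16590290-16590311, plus strand), all in MIR99AHG. The chromosome 19 cluster is compact. There MIR99B (miR-99b-5p at chr19:51692618-51692639, plus strand), MIRLET7E and MIR125A (miR-125a-5p at chr19:51693268-51693291, plus strand) start within 650 bases of each other in an intron of SPACA6. Exons of the antisense SPACA6P-AS overlap all 3. These positions are on GRCh38, while the submitters' notes name hg19.

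Values were deposited as RPKM, reads per kilobase of miRNA and per 1000000 reads. RPKM summed to 5509071 in spheres and 26530004 in parental cells, 4.82 times as much, so each value was also expressed per 1000000 of its column sum ("rescaled RPKM"). Log2 folds compare spheres with parental cells after adding 0.5 to each value (rescaled or, where stated, as deposited), and so understate the change of low miRNAs. A miRNA whose mean over the libraries reached 10 rescaled RPKM counted as measured, and a 2-fold difference as higher or lower. Taking the commonest RPKM value above 0 as 1 read puts about 683674 miRNA reads in the sphere and 4550662 in the parental library. By the same step, the RPKM were scaled to about 5630047 reads in spheres and 7782765 in parental cells. By this estimate a smaller part of those reads carried miRNA names in spheres, and what the others were was not tested. Both totals rest on the same step, and RPKM already allow for the number of reads. The smaller part is therefore the lower RPKM sum restated, not a separate result. Intervals are exact 95% intervals from such estimated reads unless stated, and they describe these libraries, not the conditions. They hold counting error alone, and reads copied by PCR are not separate molecules. Where a miRNA was listed at 0, up to 3 reads remain possible, or 4.40 rescaled RPKM in spheres and 0.66 in parental cells. All 3 squamous markers and all 5 epithelial markers were measured, with summed levels of 70112 and 25313 rescaled RPKM in spheres, against 34015 and 6369 in parental cells. The larger sums in spheres came mostly from miR-203a, miR-200a-3p and miR-141-3p, while miR-205-5p (19458 in spheres, 21938 in parental cells) and miR-200b-3p (790 and 975) were lower in spheres.

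The 5 guides were among the 72 most abundant names in each library, and the order of the 7 levels, per length, was the same in both. miR-99b-5p came first, followed by miR-125a-5p, miR-100-5p, miR-99a-5p, miR-125b-5p, miR-125b-1-3p and miR-125b-2-3p. Among all names they held ranks 32, 36, 55, 60, 72, 140 and 148 in spheres, and ranks 43, 45, 50, 54, 60, 106 and 229 in parental cells. Counting intervals of neighbours in this order overlapped only for the 2 passenger arms in spheres, and for no pair in parental cells. The 5 guides together took 0.896% of the miRNA signal in spheres (approximate 95% interval 0.874% to 0.919%) and 0.693% in parental cells (0.685% to 0.700%).

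**Figure D1:**
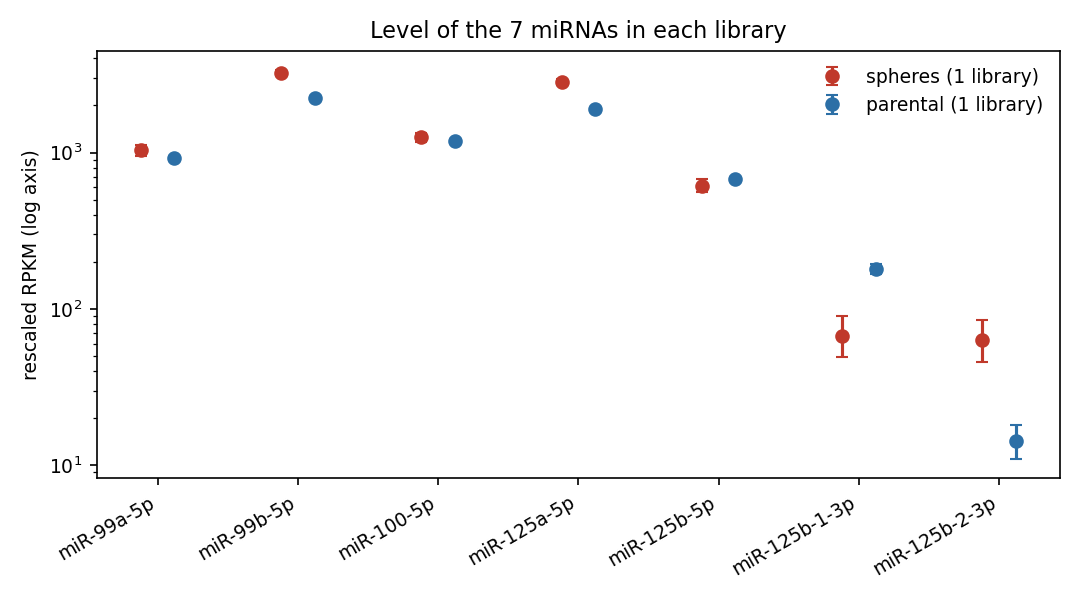
Level of each of the 7 miRNAs in rescaled RPKM on a log axis, spheres left of parental cells, 1 library each; bars are exact 95% counting intervals. The guides lie between 615 and 3223 in spheres and between 677 and 2241 in parental cells, and the passenger arms sit close together in spheres (67.4 and 63.0) and far apart in parental cells (180.4 and 14.2).

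Of the 7 members, 1 passed the 2-fold mark as higher in spheres, 1 passed it as lower and 5 did not pass it. Over all 269 measured miRNAs, 62 (23.0%) were higher and 51 (19.0%) were lower, so these counts are close to the background. The median log2 fold was 0.16 over the members and 0.02 over all measured miRNAs. The sign of the members' median is not firm, as it was between -0.24 and -0.029 under 4 other scalings. On the deposited scale none of the 7 was higher, where 6.32% of all measured miRNAs were. On that scale 6 of the 7 were at least 2-fold lower, against 79.6% of all, and their median log2 fold was -2.11 beside -2.25 over all.

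The chromosome 19 guides had the largest positive log2 folds among the guides. miR-99b-5p stood at 17758 RPKM in spheres and 59456 RPKM in parental cells, or 3223 and 2241 after rescaling. The rescaled ratio was 1.44 (1.37 to 1.51), with a log2 fold of 0.52. miR-125a-5p stood at 15631 RPKM in spheres and 50372 RPKM in parental cells, or 2837 and 1899 after rescaling, a ratio of 1.49 (1.42 to 1.57) and a log2 fold of 0.58. Both were higher as a share of miRNA in spheres, by less than 2-fold, and both log2 folds stayed above 0 under the 4 other scalings (0.13 to 0.33 and 0.18 to 0.39). As deposited both were lower, with log2 folds of -1.74 and -1.69. The ratio of miR-125a-5p to miR-99b-5p was 0.88 in spheres and 0.85 in parental cells, a log2 difference of 0.055 whose interval, a normal approximation, ran from -0.040 to 0.15.

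The other guides, from the long clusters on chromosomes 11 and 21, had log2 folds closer to 0 after rescaling to the column sum. Under 3 of the 4 other scalings miR-125b-5p was further from 0 than miR-99b-5p, and as deposited all 3 were further from 0 than both chromosome 19 guides. miR-100-5p stood at 6913 RPKM in spheres and 31531 RPKM in parental cells, or 1255 and 1189 after rescaling, a ratio of 1.06 (0.981 to 1.13). miR-99a-5p stood at 5682 RPKM in spheres and 24448 RPKM in parental cells, or 1031 and 922 after rescaling, a ratio of 1.12 (1.03 to 1.21). Their log2 folds of 0.08 and 0.16 turned negative under all 4 other scalings and were -2.19 and -2.11 as deposited, so neither has a firm direction. Since these miRNAs differ at 1 base, the division of reads between them is uncertain.

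miR-125b-5p, made by both genes, was the least abundant guide. It stood at 3389 RPKM in spheres and 17972 RPKM in parental cells, or 615 and 677 after rescaling. The ratio was 0.908 (0.818 to 1.01), an interval that includes no difference, and the log2 fold was -0.14. Under the 4 other scalings the log2 fold lay between -0.54 and -0.33, and it was -2.41 as deposited.

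**Figure D2:**
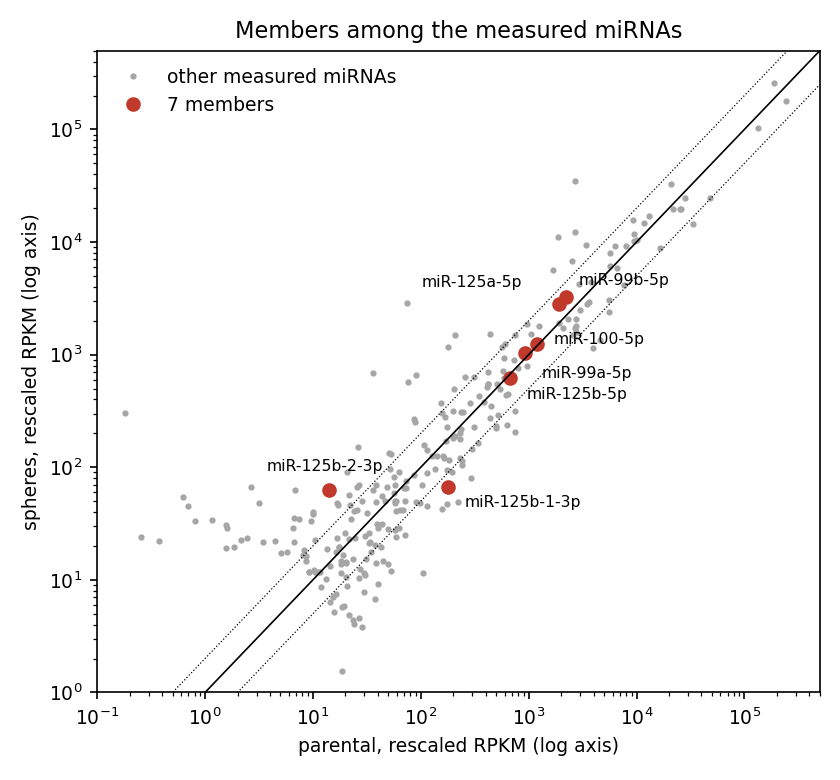
Rescaled RPKM of the 269 measured miRNAs, spheres on the vertical and parental cells on the horizontal log axis, with the 7 members in red; the solid line marks equal values and the dotted lines 2-fold. The 5 guides lie inside the 2-fold lines, miR-125b-2-3p lies above them and miR-125b-1-3p below them.

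In spheres the makeup of both seed groups lay further toward the chromosome 19 genes, a comparison within each library that the scaling of the columns cannot change. miR-99b-5p made up 58.5% of the miR-99 and miR-100 guides in spheres (56.9% to 60.1%) and 51.5% in parental cells (50.8% to 52.2%). miR-100-5p made up 22.8% in spheres (21.4% to 24.2%) and 27.3% in parental cells (26.7% to 27.9%), and miR-99a-5p 18.7% (17.5% to 20.0%) and 21.2% (20.6% to 21.8%). In the other seed group, miR-125b-5p held 17.8% of the miR-125 guides in spheres (16.3% to 19.4%) and 26.3% in parental cells (25.5% to 27.1%), with miR-125a-5p as the rest. As these guides differ in length, the intervals are approximate. In estimated reads the shares were 16.6% in spheres (15.2% to 18.1%) and 24.6% in parental cells (23.9% to 25.4%). In each of these pairs of shares the counting intervals of the libraries did not overlap.

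Set against its own paralogs, miR-99b-5p gained on miR-100-5p by 0.45 in log2 (normal approximation 0.32 to 0.57) and on miR-99a-5p by 0.36 (0.23 to 0.49). miR-125a-5p gained on miR-125b-5p by 0.72 (0.56 to 0.88). For miR-99a-5p against miR-100-5p the difference was 0.084 (-0.071 to 0.24), which includes 0. Summed, miR-99b-5p and miR-125a-5p stood at 6061 rescaled RPKM in spheres and 4140 in parental cells, a ratio of 1.46 (1.42 to 1.51). The sum of the other 3 guides stood at 2901 in spheres and 2787 in parental cells, a ratio of 1.04 (0.992 to 1.09). Under the 4 other scalings the log2 ratio lay between 0.15 and 0.36 for the first sum. For the sum of the other 3 guides it lay between -0.34 and -0.13. As deposited both sums were lower in spheres, with log2 ratios of -1.72 and -2.21.

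By seed, the sums had ratios whose intervals overlapped. The miR-99 and miR-100 seed summed to 5510 rescaled RPKM in spheres and 4351 in parental cells, a ratio of 1.27 (1.22 to 1.31). The miR-125 seed summed to 3452 in spheres and 2576 in parental cells, a ratio of 1.34 (1.28 to 1.40). Both sums were lower as deposited, with log2 ratios of -1.93 and -1.85. Under the 4 other scalings the log2 ratio lay between -0.057 and 0.15 for the first seed and between 0.025 and 0.23 for the other.

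**Figure D3:**
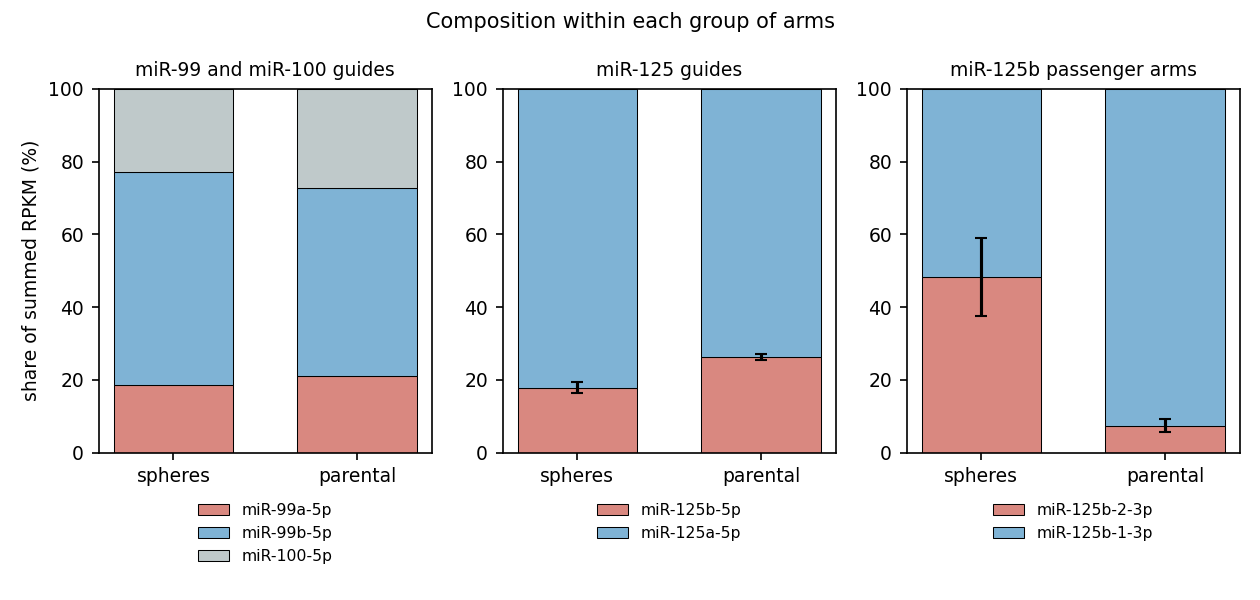
Share of summed RPKM, in percent, within the miR-99 and miR-100 guides, the miR-125 guides and the miR-125b passenger arms, spheres left of parental cells, 1 library each; bars in the right-hand pair of panels are 95% counting intervals of the lower segment, approximate for the miR-125 guides. miR-125b-2-3p holds 48.3% of the passenger arms in spheres and 7.31% in parental cells.

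The passenger arms of the 2 miR-125b genes differed in opposite directions after rescaling. miR-125b-1-3p, from chromosome 11, stood at 371 RPKM in spheres and 4787 RPKM in parental cells, on about 46 and 820 reads. After rescaling it was at 67.4 in spheres (49.4 to 89.9) and 180.4 in parental cells (168 to 193), a log2 fold of -1.41. It was 2.68-fold lower in spheres, with an interval of 1.99 to 3.69 that reaches just below 2-fold. miR-125b-2-3p, from chromosome 21, stood at 347 RPKM in spheres and 378 RPKM in parental cells, on about 43 and 65 reads. After rescaling it was at 63.0 in spheres (45.6 to 84.9) and 14.2 in parental cells (11.0 to 18.2), which is 4.43-fold higher (2.94 to 6.61), with a log2 fold of 2.11.

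The opposite signs depend on the rescaling, whereas the difference between the arms does not. As deposited, miR-125b-1-3p was 12.9-fold lower in spheres (log2 fold -3.69), while miR-125b-2-3p had a log2 fold of -0.12 and was no longer called. Under the 4 other scalings miR-125b-1-3p had log2 folds of -1.81 to -1.60 and miR-125b-2-3p of 1.71 to 1.92, so both calls were kept. Within each library, miR-125b-2-3p accounted for 48.3% of the passenger arms in spheres (37.6% to 59.2%) and 7.31% in parental cells (5.69% to 9.23%). Its ratio to miR-125b-1-3p was 0.93 in spheres and 0.079 in parental cells, an 11.8-fold difference (normal approximation 7.28 to 19.3).

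Among measured miRNAs, 27 had a lower log2 fold than miR-125b-1-3p and 30 had a higher one than miR-125b-2-3p, so neither is extreme on its own. Apart from miR-125b, only let-7f and miR-30c had arms of both numbered genes measured, a comparison chosen after the values were seen. Their arms differed by 0.47 and 1.45 in log2 fold, on as few as about 8 sphere reads, against 3.52 for miR-125b. Summed, the miR-125b passenger arms stood at 130.4 rescaled RPKM in spheres and 194.7 in parental cells, a ratio of 0.67 (0.533 to 0.834). The guide exceeded this sum 4.72-fold in spheres and 3.48-fold in parental cells, a log2 difference of 0.44 (normal approximation 0.09 to 0.79). That is close to the background. Over the 50 miRNA names with both arms measured, the more abundant arm gained by a median of 0.50 (quartiles -0.35 and 1.14).

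Other neighbours within a cluster differed in their folds, unlike miR-125a-5p and miR-99b-5p, but some of these pairs set a guide against a passenger arm. On chromosome 11, miR-100-5p exceeded miR-125b-1-3p 18.6-fold in spheres and 6.59-fold in parental cells, a log2 difference of 1.50 (normal approximation 1.06 to 1.94). miR-100-3p, the passenger arm of MIR100, stood at 50.6 rescaled RPKM in spheres and 71.7 in parental cells, a log2 fold of -0.50 with a ratio of 0.705 (0.481 to 1.00). Compared passenger to passenger, miR-100-3p still gained on miR-125b-1-3p by 0.92 in log2 (0.25 to 1.58). On chromosome 21, miR-125b-2-3p, a passenger arm, gained on the guide miR-99a-5p by 1.98 (1.42 to 2.55). A difference between these genes cannot be told apart there from one between arms. miR-99a-3p was listed at 0 in spheres and had 1 estimated read in parental cells, so MIR99A could be followed by its guide only.

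The let-7 guides of the clusters, members of a family that accumulates as cells differentiate, were far more abundant and lower after rescaling. let-7e-5p, from chromosome 19, stood at 19660 rescaled RPKM in spheres and 25530 in parental cells, a log2 fold of -0.38. Relative to let-7e-5p, miR-99b-5p gained by 0.90 in log2 (normal approximation 0.83 to 0.97) and miR-125a-5p by 0.96 (0.88 to 1.03), although the 3 hairpins lie side by side. let-7c, from chromosome 21, stood at 24634 in spheres and 28301 in parental cells, a log2 fold of -0.20, and miR-99a-5p gained on it by 0.36 (0.25 to 0.48). let-7a-5p, to which chromosome 11 contributes 1 of several genes, had a log2 fold of -0.44. let-7a-2-3p, which reports the chromosome 11 gene, was listed at 0 in spheres and had 7 estimated reads in parental cells, below the depth needed for a comparison. Reads of near-identical let-7 members may have been assigned to one another.

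**Figure D4:**
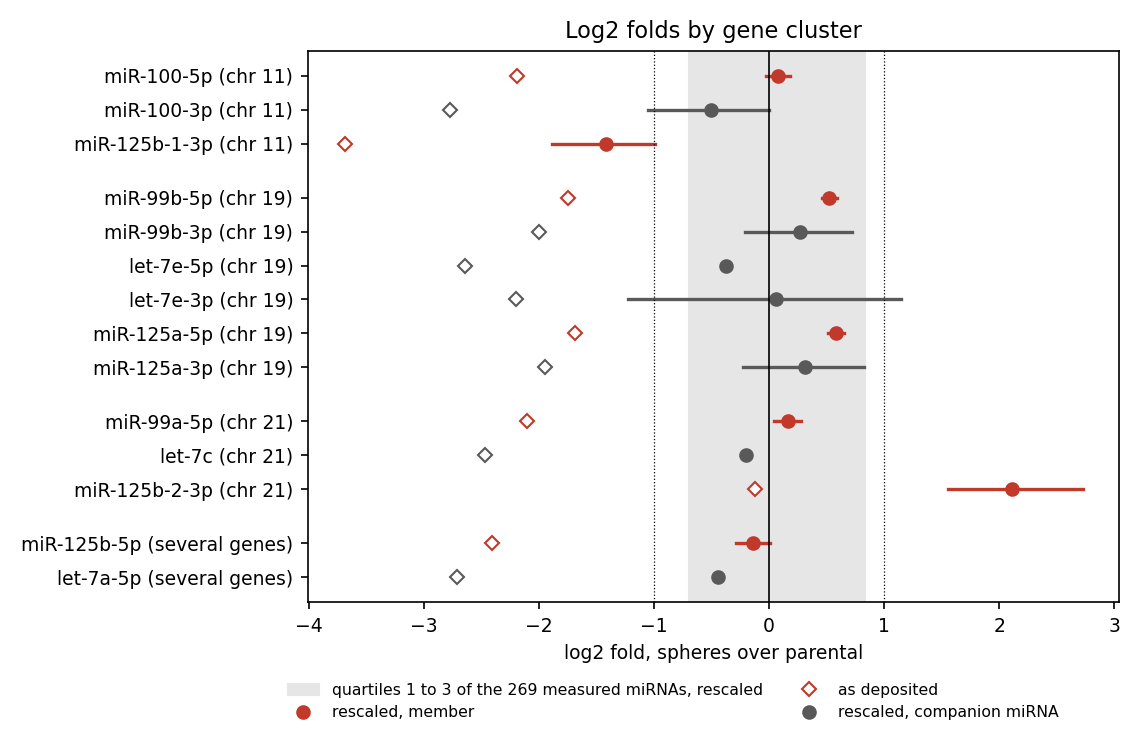
Log2 fold, spheres over parental cells, of the members (red) and the companion miRNAs of the same clusters (grey), by chromosome; circles with exact 95% counting intervals are rescaled values, open diamonds are values as deposited, and the grey band spans quartiles 1 to 3 of the 269 measured miRNAs. All 5 guides lie inside the band, the miR-125b passenger arms lie on opposite sides of it, and every diamond is below 0.

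The passenger arms of MIR99B and MIR125A had positive log2 folds like their guides, on few reads. In MIRLET7E between them, let-7e-5p had a log2 fold of -0.38, while let-7e-3p, on about 8 sphere reads, had no firm sign. The log2 fold of let-7e-3p was 0.06, at a ratio of 1.04 (0.428 to 2.22), and -0.32 to -0.12 under the 4 other scalings. miR-99b-3p stood at 69.6 rescaled RPKM in spheres and 57.8 in parental cells, a log2 fold of 0.27, and miR-125a-3p at 55.1 and 44.1, a log2 fold of 0.32. Their intervals include no difference, at ratios of 0.864 to 1.64 and 0.857 to 1.78, and their log2 folds reached -0.13 and -0.077 under the other scalings. miR-99b-5p exceeded its passenger arm 46.3-fold in spheres and 38.8-fold in parental cells, and miR-125a-5p 51.5-fold and 43.1-fold. For these, the log2 differences of 0.26 each had intervals that include 0 (-0.19 to 0.71 and -0.25 to 0.77). miR-100-5p exceeded miR-100-3p 24.8-fold in spheres and 16.6-fold in parental cells, a log2 difference of 0.58 (0.066 to 1.10). In these 3 hairpins the less abundant arm had the lower log2 fold, as it did for 34 of the 50 miRNA names with both arms measured (68.0%). This comparison of arms was chosen after the values were seen.

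Of 12 companion names in the tables, namely opposite arms, let-7 neighbours and relatives by sequence, 9 were measured. None reached 2-fold after rescaling, where 23.0% of all measured miRNAs were higher and 19.0% lower. A log2 fold above 0 was found for 3 of the 9, against 137 of all 269. The counting intervals of these 3, miR-99b-3p, miR-125a-3p and let-7e-3p, include no difference. Under some or all of the other scalings, which shift all miRNAs together, their log2 folds fell below 0. As deposited all 9 were at least 2-fold lower, as were 79.6% of all. let-7e-3p rested on about 8 sphere reads. The miR-10 guides are relatives of miR-100 outside its seed group, and miR-10a-5p shares a run of 11 bases with miR-100-5p but has another seed. miR-10a-5p stood at 2962 rescaled RPKM in spheres and 3662 in parental cells, a log2 fold of -0.31. miR-10b-5p stood at 2493 and 3024, a log2 fold of -0.28. Both were thus below miR-99b-5p in spheres by level and above it in parental cells.

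By distance over the log2 levels of the 2 libraries, the measured miRNA outside these lists nearest to miR-125b-5p was miR-7-5p, at a distance of 0.20 and with 616 rescaled RPKM in spheres and 590 in parental cells. The nearest to miR-100-5p was miR-181b-5p (0.34), to miR-99a-5p miR-183-5p (0.38), to miR-125a-5p miR-30c-5p (0.52) and to miR-99b-5p miR-27a-3p (0.55). With 2 libraries, this likeness is one of level more than of pattern.

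miR-100, miR-99a and miR-125b are also abundant in mesenchymal cells. Of 6 mesenchymal and stromal markers 1 was measured, and the list summed to 76.5 rescaled RPKM in spheres and 28.9 in parental cells. Most of that sum was the measured marker, miR-143-3p, at 66.3 in spheres and 25.9 in parental cells, a log2 fold of 1.34. miR-199b-5p was listed at 0 in both libraries and miR-145-5p and miR-214-3p at 0 in parental cells. In spheres these 2 were at 1.40 and 0.24, below the 4.40 that a listed 0 allows. The blood list had 1 of 6 measured and summed to 241 in spheres and 745 in parental cells. Most of that sum was miR-486-5p (207 in spheres and 741 in parental cells). miR-451a, miR-142-5p, miR-142-3p and miR-150-5p were listed higher in spheres, at 2.80 to 13.2, than in parental cells, at 0 to 3.25. None of these was measured, and they rest on few sphere reads, as 1 read there equals 1.47 rescaled RPKM. The 2.80 of miR-142-3p in spheres is below the 4.40 that a listed 0 allows. miR-223-3p was listed at 0 in spheres, and miR-142-3p and miR-150-5p at 0 in parental cells. The endothelial pair summed to 445 in spheres and 192 in parental cells, 3 of 4 nervous system markers to 684 and 693 with miR-124-3p at 0 in both, and the muscle markers, none measured, to 17.9 and 2.05. The liver marker miR-122-5p was at 0 in both. The part of other cell types in the members' differences was not tested.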

How the data were processed

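Small RNA libraries were built with a TruSeq small RNA kit from 1 µg of total RNA with size fractionation, per the labels' protocols. Per the file headers, the authors' values for 2038 mature miRNA names are RPKM, deposited with no raw counts. The submitters' processing notes name hg19. For the aligner, the counter, the miRNA release and multiply matching reads, the entry is "not given in the sources used here". Columns were rescaled to a sum of 1000000. Reads were estimated from the commonest value above 0, taken as 1 read on 22 nt (8.07 RPKM in spheres, 5.84 RPKM in parental cells), times the RefSeq mature length (22 nt where none was listed). That step cannot be shown to be 1 read. Of values from 0.5 to 5 estimated reads, 48.9% of 268 in spheres and 50.5% of 307 in parental cells were whole within 0.001 reads, so part of the reads were fractions.

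Ratio and share intervals are Clopper-Pearson, level intervals exact Poisson. For a share, the RPKM share times the estimated reads served as the count. That is approximate where lengths differ, as for the miR-125 guides and for shares of the miRNA signal. Differences between pairs of miRNAs have normal-approximation intervals. The members, their companions (opposite arms, let-7 neighbours, miRNAs related by sequence) and cell type markers were chosen with earlier results of these data known. All members and companions are named, with the nearest measured miRNA for each guide. The steps were tested on simulated data with whole reads and with the most abundant miRNAs left unchanged. Fractions of reads and changes in the most abundant miRNAs were thus not covered. Alternatives were 4 other scalings, no rescaling, a pseudocount of 5, other filters, an interval rule and shares of reads. Python 3.11.15, numpy 2.4.6, pandas 2.3.3, scipy 1.17.1 and matplotlib 3.10.9 were used.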

Additional observations from a re-analysis of the deposited data

How the results depend on the processing

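The scaling set the sign of the members' median log2 fold, 0.16 after rescaling to the column sum. It was -0.029 with the trimmed mean, -0.046 with the median of ratios, -0.16 with the upper quartile, -0.24 with the sum without the 10 most abundant miRNAs and -2.11 as deposited, since these scalings shift all log2 folds together. As deposited, 0 members were higher and 6 lower in place of 1 and 1, and the log2 fold of miR-125b-2-3p turned to -0.12. A minimum mean of 100 left 0 higher members, as miR-125b-2-3p then fails the filter. With the whole counting interval beyond 2-fold, 0 were lower, as that of miR-125b-1-3p reaches 1.99. In estimated reads, where the 24 nt of miR-125a-5p count for more, miR-125b-5p held 24.6% of the miR-125 guides in parental cells in place of 26.3%. The miR-125 guides then held 0.370% of the miRNA signal in spheres and 0.274% in parental cells, in place of 0.345% and 0.258%. The sphere library limits precision, with about 46 and 43 reads on the miR-125b passenger arms. No paired analysis was possible because each group has 1 library, which also allows no leave-one-out value.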
